A study of Mus musculus with 56 samples.

Results

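Cells of N2a, a mouse neuroblastoma line, were given siRNA against Mbnl1 (siMbnl1) together with a plasmid for a FLAG-tagged cytosolic form of MBNL1 (cMBNL1), and were compared with cells given a non-targeting siRNA (siNT) and the control plasmid pcDNA. The comparison takes all genes and splicing events of these 2 groups, chosen by their labels: 3 libraries of siMbnl1 cMBNL1 and 3 of siNT pcDNA, so 6 of the 56 samples and 2 of the 19 groups in the series. All 15 co-transfection libraries came from N2a cells in DMEM with fetal bovine serum that received an siRNA and a plasmid by lipid transfection; the other 3 groups were siMbnl1 pcDNA, siFmr1 pcDNA and siFmr1 with FLAG-tagged nuclear MBNL1 (nMBNL1). The question put by the series is how loss of FMRP, the protein of the Fmr1 gene, and the place of MBNL1 in the cell bear on splicing.

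MBNL1 belongs to the muscleblind family of zinc finger proteins, which bind RNA at GC steps flanked by pyrimidines and, in the nucleus, promote or block the use of alternative exons. Binding upstream of or within an exon commonly lowers its inclusion, and binding downstream commonly raises it. In the cytoplasm the same proteins bind 3′ untranslated regions and affect where mRNAs go and how long they last. The Mbnl1 gene controls its own localisation through alternative exons, 1 of which carries part of a nuclear localisation signal.

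Against siNT pcDNA, the siMbnl1 cMBNL1 libraries differ in both the siRNA and the plasmid, and the effects of these cannot be told apart in that comparison. The siMbnl1 pcDNA libraries, which share the siRNA, are therefore given beside it. Transfection was transient, and the sources used here give neither the share of cells that took up the plasmid nor the time to harvest. Nothing in the labels says whether the 3 libraries of a group came from separate cultures, so p-values measure only the spread between these libraries.

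The deposited normalised counts of the 6 libraries summed to between 31871600 and 32768400, with 15633 to 16332 genes above 0, and their original depth is unknown. Of 8 neuroblastoma and sympathoadrenal marker genes, 7 had means of at least 284 normalised counts in both groups. Summed markers of fibroblasts, macrophages, astrocytes, oligodendrocytes and epithelium were between 33.4 and 568 per library, with Col3a1, Lum and Gjb6 at 0 in all 6 libraries. The sum of the neuroblastoma list was 35957 to 45332 in siNT pcDNA and 50063 to 53610 in siMbnl1 cMBNL1. The astrocyte and macrophage sums were lower in siMbnl1 cMBNL1 without overlap, at 302 to 365 against 494 to 568 and at 33.4 to 40.9 against 49.8 to 73.7. Most of each was a single gene: Aldh1l1, with means of 518 in siNT pcDNA and 325 in siMbnl1 cMBNL1, and Cd68, with 54.8 and 32.4. The astrocyte markers Gfap, Aqp4 and Slc1a3 had means of at most 7.65 and were slightly higher in siMbnl1 cMBNL1. These sums therefore do not show a shift of a cell type. The part of these sums in the results was not tested. The siNT pcDNA libraries varied more among themselves than other groups did: the median SD per gene was 0.24 on the log2 scale, against 0.11 in siMbnl1 cMBNL1. The gene test used a spread pooled over all co-transfection groups, which does not give siNT pcDNA its own wider spread. Replicate 2 of siNT pcDNA stood apart by transcript length. It was lower than the other 2 siNT pcDNA libraries by a median of 0.25 (log2) for genes with transcripts of 600 bases or less, and higher by 0.26 for the class with the longest transcripts. Counts that move without this library are given beside the lists concerned.

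Mbnl1 (chr3:60472830-60629750, plus strand, GRCm38) was the first check of the labels. It was listed at 4410, 5017 and 3759 normalised counts in siNT pcDNA, 1408, 1538 and 1509 in siMbnl1 pcDNA, and 19178, 23338 and 16769 in siMbnl1 cMBNL1. The 3 groups did not overlap: Mbnl1 RNA was lowest with the siRNA and control plasmid and highest with the siRNA and cMBNL1 plasmid. The log2 fold change of siMbnl1 cMBNL1 over siNT pcDNA was 2.16 ± 0.11 (SE, 3 libraries per group, limma adjusted p = 8.4e-09), and over siMbnl1 pcDNA it was 3.72 (adjusted p = 5e-12). Reads of the plasmid and of the endogenous gene cannot be told apart in these values. Fmr1 was not called: it was listed at 2819, 3604 and 2856 normalised counts in siNT pcDNA and at 2652, 2710 and 2615 in siMbnl1 cMBNL1 (log2 fold change -0.21 ± 0.13, limma adjusted p = 0.22).

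The remaining members of the muscleblind and FMRP families that are named here moved less. Mbnl2, the second muscleblind gene of neural cells, fell from 4151, 3982 and 4119 normalised counts to 3420, 3432 and 3674, without overlap (log2 fold change -0.22, limma adjusted p = 0.0062; 0.10 in a fit of the 6 libraries alone). Mbnl3, the third, was near 0 in both groups, at 0, 0.997 and 0 against 2.95, 4.11 and 3.77, and its call (adjusted p = 0.024) was lost in several alternative fits. Fxr2, a relative of Fmr1, rose from 2947, 3529 and 3641 to 4756, 4750 and 4783 (log2 fold change 0.50, limma adjusted p = 0.00016). It was also above its 3661, 3865 and 3967 in siMbnl1 pcDNA, where the test of that difference was at an adjusted p of 0.0495.

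Junction reads gave a view inside the Mbnl1 transcript. An inclusion level is the share of transcripts that contain an exon, estimated from reads over its junctions and divided by the number of positions that such reads can take. The 54-base exon at chr3:60614683-60614736 (plus strand, coding), which is the exon that carries part of the nuclear localisation signal, had inclusion levels of 0.2999%, 0.331% and 0.461% in the 3 siMbnl1 cMBNL1 replicates. In the siNT pcDNA replicates it was at 64.3%, 63.4% and 45.6%, and in siMbnl1 pcDNA at 72.5%, 68.4% and 80.0% (difference from siNT pcDNA -57.4 points, quasi-binomial adjusted p = 7.2e-13). The groups were far apart in skipping reads and less so in inclusion reads. Skipping was supported by 9761, 11936 and 9200 junction reads in siMbnl1 cMBNL1 against 100, 131 and 121 in siNT pcDNA. Inclusion was supported by 40, 54 and 58 against 245, 309 and 138. These reads, too, mix the plasmid's RNA with that of the gene.

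With the downstream splice site moved to 60615725, a junction for which few reads were counted, the same exon was included at 16.4%, 18.7% and 28.6% against 94.6%, 89.8% and 59.5% (30, 32 and 22 skipping reads against 3, 7 and 21; quasi-binomial adjusted p = 0.0017). The 36-base Mbnl1 exon at chr3:60621423-60621458, where inclusion is known to favour contact between MBNL1 molecules, was at 99.7%, 99.9% and 99.7% against 79.8%, 89.5% and 93.5% when joined to the exon at 60625124 (adjusted p = 0.00017). With another downstream junction and more reads (211, 337 and 247 inclusion reads in siNT pcDNA in place of 49, 74 and 71), the same exon differed by 5.74 points and was not called. The difference of 12.2 points dropped to 8.29 points, under the minimum of 10, without the first siNT pcDNA replicate. The sequences of both exons are shown because they define the forms of MBNL1 that the groups contained. Capitals mark the 4-base motifs TGCT and TGCC, together with CGCT and CGCC, which match the known binding preference of muscleblind proteins; they were searched on the transcribed strand, and overlapping matches were counted.

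Mbnl1 54-base exon: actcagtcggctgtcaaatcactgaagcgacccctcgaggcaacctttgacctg

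Mbnl1 36-base exon: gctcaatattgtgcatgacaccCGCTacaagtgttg

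The 54-base exon held none of these motifs and the 36-base exon held 1. A match describes the letters and is not shown to be a bound site.

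Across all genes, 5467 of the 16219 tested were called at an adjusted p under 0.05 in limma (33.7%), of which 2874 rose (17.7%) and 2593 fell (16%). Of these, 889 changed by at least 1 on the log2 scale, 537 upwards and 352 downwards. Groups did not overlap for 6421 genes (39.6%). The median log2 fold change over all tested genes was 0.03, and the calls spread over the whole range of levels, as the plot of all genes shows. With only the 6 libraries in the fit, 3019 genes were called, and 3564 with array weights that gave each group its own variance. Against siMbnl1 pcDNA, 364 genes differed (2.24%), 233 higher and 131 lower in siMbnl1 cMBNL1. This number was 37 to 182 when 1 library was left out, and 2849 when only the 6 libraries of the siMbnl1 groups were fitted, so a difference between these groups that was not called may still be called in that fit.

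**Figure D1:**
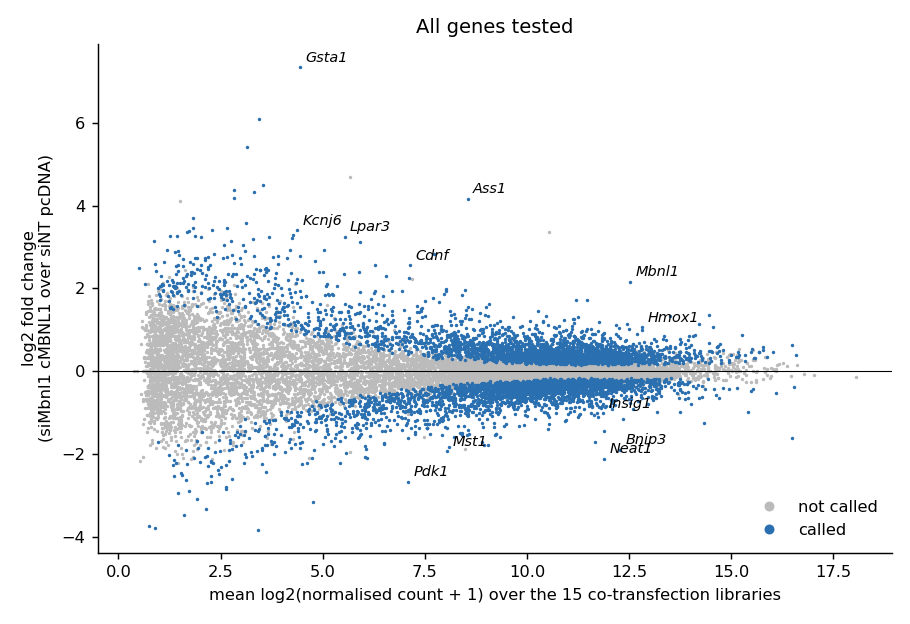
Log2 fold change of siMbnl1 cMBNL1 over siNT pcDNA (y axis) against the mean log2(normalised count + 1) over the 15 co-transfection libraries (x axis), 1 point per tested gene. Blue points are the 5467 called genes and grey points the others; labelled genes include Mbnl1 at 2.16 and Neat1 at -2.10.

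A first set of genes was high in siMbnl1 cMBNL1 and not in siMbnl1 pcDNA. Lpar3 (chr3:146220963-146286186), a receptor for lysophosphatidic acid, was listed at 30.2, 25.9 and 18.8 normalised counts in siNT pcDNA, 12.6, 27.8 and 19.3 in siMbnl1 pcDNA, and 244, 271 and 215 in siMbnl1 cMBNL1. Its log2 fold change was 3.25 ± 0.33 over siNT pcDNA (limma adjusted p = 3.4e-06) and 3.61 over siMbnl1 pcDNA (adjusted p = 2.8e-05). All 3 siMbnl1 cMBNL1 libraries were above every library of both other groups.

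Cdnf (chr2:3513030-3526376), which encodes a secreted neurotrophic factor for dopamine neurons that resides in the endoplasmic reticulum, followed the same order. It was at 68.3, 49.8 and 70.1 normalised counts in siNT pcDNA, 55.1, 64.0 and 40.8 in siMbnl1 pcDNA, and 366, 404 and 349 in siMbnl1 cMBNL1 (log2 fold change 2.57, limma adjusted p = 1.2e-07; over siMbnl1 pcDNA 2.81, adjusted p = 1.8e-07). Tmco5b (chr2:113285732-113297190), a gene for a transmembrane coiled-coil protein, was at 24.5, 34.9 and 33.4, then 30.6, 18.1 and 26.4, and then 214, 190 and 155 (log2 fold change 2.56, limma adjusted p = 6.1e-07; over siMbnl1 pcDNA 2.87, adjusted p = 2.4e-06). For neither gene did the siMbnl1 cMBNL1 libraries overlap those of the 2 pcDNA groups.

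The nuclear MBNL1 plasmid gave high values of the same 3 genes in another siRNA background. In siFmr1 nMBNL1, Lpar3 was at 111, 133 and 116 normalised counts, Cdnf at 406, 453 and 466, and Tmco5b at 290, 292 and 258. In siFmr1 pcDNA they were at 19.3, 17.5 and 6.97, at 104, 89.9 and 98.4, and at 59.0, 78.0 and 60.1. All 3 genes were thus higher in both groups that received an MBNL1 plasmid than in the 3 groups that received pcDNA, without overlap. B3galt4 (chr17:33949909-33951488), a galactosyltransferase of ganglioside synthesis, rose to 119, 196 and 136 from 26.8, 26.9 and 31.3 in siNT pcDNA, with 42.4, 45.9 and 45.6 in siMbnl1 pcDNA (log2 fold change 2.34, limma adjusted p = 7.6e-06; over siMbnl1 pcDNA 1.70, adjusted p = 0.0056). In siFmr1 nMBNL1 it was at 53.3, 41.4 and 41.3, and in siFmr1 pcDNA at 20.4, 15.4 and 33.1.

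A larger set of genes differed from siNT pcDNA in both siMbnl1 groups, and some of these lay apart from it in siFmr1 pcDNA as well. Neat1 (chr19:5824708-5845478), the long non-coding RNA that builds nuclear paraspeckles, fell in both siMbnl1 groups. It was at 10439, 8378 and 10591 normalised counts in siNT pcDNA, 2799, 3009 and 2793 in siMbnl1 pcDNA, and 2288, 2415 and 2110 in siMbnl1 cMBNL1 (log2 fold change -2.10 ± 0.09, limma adjusted p = 1.2e-09). Neither siMbnl1 group overlapped siNT pcDNA, and the difference between the 2 siMbnl1 groups, -0.34 on the log2 scale, was not called (adjusted p = 0.058; 0.0019 with only those 6 libraries fitted).

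Other falls of this kind were those of Mst1, which encodes a secreted ligand of the hepatocyte growth factor family, from 702, 524 and 668 normalised counts to 221, 140 and 143 (log2 fold change -1.93, limma adjusted p = 6.7e-07), and of Nppb, the precursor of a natriuretic peptide, from 219, 137 and 181 to 45.5, 58.2 and 47.8 (-1.79, adjusted p = 9.8e-06). Crhbp, which binds corticotropin-releasing hormone, fell from 154, 105 and 142 to 39.4, 30.9 and 29.2 (-1.97, adjusted p = 2.8e-05). Poteg, Serpinb9b and Rnf207 fell by 2.08, 1.86 and 1.83 on the log2 scale. None of these 6 genes was called against siMbnl1 pcDNA, though Rnf207 was with only those 6 libraries fitted (limma adjusted p = 0.034). In siFmr1 pcDNA, Neat1 was at 4455, 4494 and 4850 and Mst1 at 328, 365 and 312. Nppb was at 52.1, 44.0 and 55.8 there and Crhbp at 60.1, 40.6 and 49.7. All of these values were below every siNT pcDNA library, so these falls were not particular to siMbnl1. Rmrp, the RNA part of the ribonuclease MRP, was called at -2.09 but was listed at 37.8, 636 and 146 in siNT pcDNA, and its call was lost without siNT pcDNA replicate 2 (log2 fold change -1.07).

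Among the rises, Mt1, a metal-binding metallothionein, went from 96.3, 20.9 and 74.4 normalised counts to 362, 460 and 347 (log2 fold change 2.83, limma adjusted p = 2e-05), with 387, 345 and 354 in siMbnl1 pcDNA. Ccl2, a chemokine that attracts monocytes, went from 66.4, 59.8 and 65.5 to 276, 301 and 351 (2.25, adjusted p = 1.7e-07). Kcnj6, a subunit of G protein-gated potassium channels, went from 4.47, 7.97 and 2.09 to 64.0, 51.5 and 51.8 (3.40, adjusted p = 5.7e-06). In each of these genes both siMbnl1 groups lay above siNT pcDNA without overlap, and no difference between the siMbnl1 groups was called. In siFmr1 pcDNA, Mt1 (208, 213 and 230) and Kcnj6 (11.3, 19.7 and 13.9) were also above siNT pcDNA, by less. Ccl2 overlapped siNT pcDNA there, at 63.5, 78.1 and 81.1. Ass1, the enzyme that joins citrulline and aspartate, was at 0, 195 and 280 in siNT pcDNA and at 911, 750 and 469 in siMbnl1 cMBNL1 (limma adjusted p = 0.024); the value of 0 in 1 library sets its fitted fold change, and the call was lost without siMbnl1 cMBNL1 replicate 1 or 2.

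**Figure D2:**
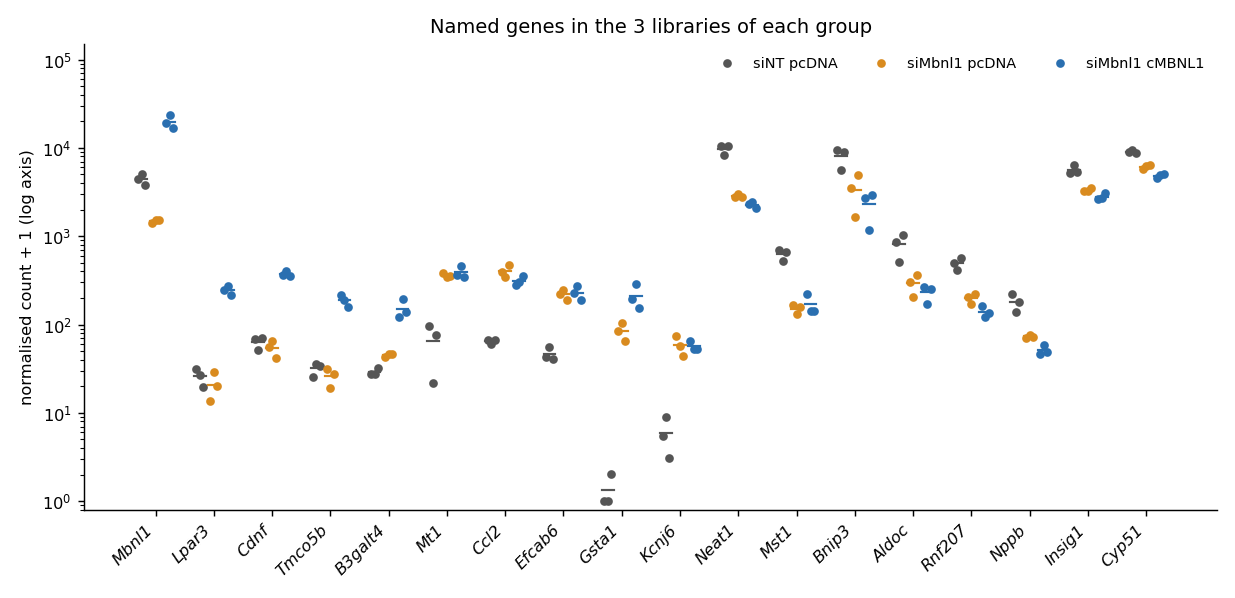
Normalised count + 1 (y axis, log scale) of 18 named genes in each of the 3 libraries of siNT pcDNA, siMbnl1 pcDNA and siMbnl1 cMBNL1; points are libraries and bars their means. Mbnl1, Lpar3, Cdnf and Tmco5b are high in siMbnl1 cMBNL1 alone among these 3 groups, while for Mt1, Neat1 and Mst1 both siMbnl1 groups lie apart from siNT pcDNA.

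Gene lists for pathways were compared with the background of 17.7% rising and 16% falling over all tested genes. Cholesterol synthesis genes mostly fell: 18 of 23 tested genes fell, none rose and 5 were not called, with a median log2 fold change of -0.64 against 0.03 for all genes. In siMbnl1 pcDNA the median of the same genes against siNT pcDNA was -0.42, and 3 of them were lower in siMbnl1 cMBNL1 than in siMbnl1 pcDNA. With only the libraries of the siMbnl1 groups fitted, 9 of 24 tested members were lower and none higher. Cyp51, the lanosterol demethylase, was at 9011, 9491 and 8662 normalised counts in siNT pcDNA, 5794, 6262 and 6401 in siMbnl1 pcDNA, and 4573, 4877 and 5094 in siMbnl1 cMBNL1. The 3 groups formed 3 separate steps (log2 fold change -0.90, limma adjusted p = 3.1e-07; against siMbnl1 pcDNA -0.34, adjusted p = 0.025).

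Insig1, the sterol sensor that holds back the SREBP pathway and is itself among its targets, fell from 5204, 6379 and 5383 normalised counts to 2625, 2684 and 3089 (log2 fold change -1.01, limma adjusted p = 4.3e-07). Nsdhl and Sc5d, enzymes of late sterol synthesis, fell by 1.05 and 0.98 on the log2 scale. Srebf2, the transcription factor gene of the pathway, was not called (log2 fold change -0.10). Between 16 and 19 list members fell when any 1 library was left out. In RefSeq promoters of GRCm38 (250 bases before to 50 after the start, both strands), the sterol element TCACNCCAC was found in 1 of the 16 list genes with a promoter entry, Hmgcs1, and in 1.42% of all tested genes.

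NRF2 is the transcription factor that drives antioxidant and detoxifying enzymes. Of its 29 tested genes 15 rose and 1 fell, Me1, with a median of 0.26 on the log2 scale. Hmox1, which degrades haem, was at 6261, 4738 and 6006 normalised counts in siNT pcDNA and at 11431, 13510 and 10687 in siMbnl1 cMBNL1, without overlap (log2 fold change 1.07, limma adjusted p = 5.2e-06). Fth1, the ferritin heavy chain, went from 30918, 20037 and 27444 to 46577, 50056 and 44300 (0.87, adjusted p = 6e-05), and Cbr3, a carbonyl reductase, rose by 1.06. No list member was called against siMbnl1 pcDNA; with only those 6 libraries fitted, 4 were higher and 3 lower, among the latter Cbr3, at 456, 471 and 437 against 563, 565 and 560 (limma adjusted p = 0.019). All 5 alpha-class glutathione transferases rose from siNT pcDNA. Gsta1 was at 0, 0 and 1.04 in siNT pcDNA, 84.5, 103 and 64.8 in siMbnl1 pcDNA, and 195, 287 and 153 in siMbnl1 cMBNL1. The siMbnl1 groups did not overlap (difference 1.299 on the log2 scale, limma adjusted p = 0.34 in the fit of 15 libraries and 0.0014 in that of 6). In siFmr1 pcDNA it was at 2.27, 0 and 18.3 and in siFmr1 nMBNL1 at 33.0, 86.9 and 54.2; reads of Gsta1, Gsta2 and Gm3776 may be shared between these near-identical copies. The antioxidant element TGACNNNGC was present in the promoters of 10 of 26 NRF2 list genes (38.5%) and of 16.6% of all tested genes.

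Genes of hypoxia and glycolysis fell in 11 of 30 cases and rose in 1, Pfkfb3, with a median of -0.28. Bnip3, a mitophagy receptor induced by hypoxia, was at 9582, 5640 and 8892 normalised counts in siNT pcDNA and at 2730, 1186 and 2938 in siMbnl1 cMBNL1 (log2 fold change -1.89, limma adjusted p = 0.00073). Aldoc, an aldolase of glycolysis, went from 864, 515 and 1044 to 265, 172 and 253 (-1.77, adjusted p = 0.00011). In both genes replicate 2 was the lowest library of its group in each of the 3 groups shown, and the groups still did not overlap. Pdk1, which brakes entry of pyruvate into mitochondria, was at 246, 211 and 255 against 109, 3.08 and 117.8, and its adjusted p of 0.049 was lost in 9 alternative fits. The number of falling genes was 19 without siNT pcDNA replicate 2 and 6 without siNT pcDNA replicate 3 or siMbnl1 cMBNL1 replicate 2.

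Lists of short, abundant mRNAs changed with the siNT pcDNA library that stood apart. Respiratory chain genes rose in 13 of 30 cases and none fell (median 0.25), but 13 rose and 5 fell without siNT pcDNA replicate 2. Large-subunit ribosomal protein genes rose in 10 of 30 cases and none fell (median 0.27). Without siNT pcDNA replicate 2, 5 rose and 4 fell, and without siNT pcDNA replicate 1, 21 rose. Without any 1 siMbnl1 cMBNL1 replicate, 4 or 5 rose. In siMbnl1 pcDNA the median of this list against siNT pcDNA was higher, at 0.48. Against siMbnl1 pcDNA, its median in siMbnl1 cMBNL1 was -0.25. With only the libraries of the siMbnl1 groups fitted, 25 of these genes were lower and none higher. For the respiratory chain list, the median in siMbnl1 pcDNA was 0.33, and in that fit 9 genes were lower and 1 higher. Ndufb3, a subunit of complex I, was at 880, 400 and 795 normalised counts in siNT pcDNA and at 1360, 1209 and 1204 in siMbnl1 cMBNL1 (log2 fold change 0.94, limma adjusted p = 0.0014), with replicate 2 the lowest of siNT pcDNA. Over genes with transcripts of 600 bases or less, the median log2 fold change was 0.16, and 0.06 without that library. The part of this library in these counts was not tested further.

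Of 23 tested catecholamine and sympathoadrenal genes 6 rose and none fell (median 0.27), though 7 rose and 3 fell without siNT pcDNA replicate 2, and 10 rose without siNT pcDNA replicate 3. Chga, the granin of dense-core vesicles, was at 2569, 3331 and 4126 normalised counts in siNT pcDNA and at 6960, 6277 and 6744 in siMbnl1 cMBNL1, without overlap (log2 fold change 1.02, limma adjusted p = 4.4e-05). Dbh, which turns dopamine into noradrenaline, was at 107, 100.7 and 132, with 157, 107 and 155 in siMbnl1 pcDNA and 257, 247 and 223 in siMbnl1 cMBNL1. It was higher than in both other groups (1.10, adjusted p = 0.00029; over siMbnl1 pcDNA 0.81, adjusted p = 0.037). In bulk RNA of this kind, fewer cells of a type and less RNA per cell cannot be told apart.

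Neuronal cytoskeleton and vesicle genes moved both ways: 5 of 30 rose and 4 fell. Cplx1, a complexin of synaptic vesicle release, was at 3034, 3751 and 3591 normalised counts in siNT pcDNA and at 7825, 7826 and 7374 in siMbnl1 cMBNL1 (log2 fold change 1.155, limma adjusted p = 1.3e-07), with 6785, 7321 and 7032 in siMbnl1 pcDNA. Syn2, a synapsin, was at 2064, 2508 and 2555 and then 4249, 4066 and 4168, and was also above the 2916, 3269 and 3442 of siMbnl1 pcDNA (0.81, adjusted p = 3.4e-06; over siMbnl1 pcDNA 0.38, adjusted p = 0.031). For Syn2 the 3 groups did not overlap. Without siNT pcDNA replicate 2, 9 genes of this list rose and 8 fell.

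ERK feedback and immediate early genes were split by member. Of 25 genes 4 rose and 7 fell, and the number of falls was 3 without siMbnl1 cMBNL1 replicate 2. Egr3, an early-response transcription factor, was at 687, 726 and 751 normalised counts in siNT pcDNA, 427, 518 and 440 in siMbnl1 pcDNA, and 246, 322 and 215 in siMbnl1 cMBNL1 (log2 fold change -1.48, limma adjusted p = 1.5e-05). Dusp6, a phosphatase that switches off ERK, was at 7494, 7767 and 8171, then 6693, 5936 and 6929, and then 4926, 4158 and 5374 (-0.70, adjusted p = 2.4e-05). Both were also lower than in siMbnl1 pcDNA (adjusted p = 0.029 and 0.023). Myc, a growth-promoting transcription factor, moved the other way, from 4807, 4842 and 5550 to 10182, 10422 and 9616 (0.99, adjusted p = 2.5e-07), with 11388, 12350 and 11454 in siMbnl1 pcDNA.

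Splicing regulators other than muscleblind genes moved evenly: 10 of 49 rose and 10 fell, near the background in both directions. Tia1, which helps define 5′ splice sites, fell from 2349, 2030 and 1950 normalised counts to 1313, 1105 and 1243 (log2 fold change -0.79, limma adjusted p = 4.2e-06). Celf5, Ptbp3 and Nova1, all RNA-binding proteins that control alternative exons, fell by 0.71, 0.51 and 0.47 on the log2 scale. Of the abundant SR and hnRNP genes, Srsf7 rose by 0.38 and Hnrnpa1 by 0.20. None of the list was called against siMbnl1 pcDNA; with only those 6 libraries fitted, 4 were higher and 2 lower. Of 19 tested genes that host known muscleblind target exons, 5 rose and 3 fell, so most were not called at the gene level; without siNT pcDNA replicate 1, 3 rose and 5 fell, and without siMbnl1 cMBNL1 replicate 2 or 3, 3 rose.

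**Figure D3:**
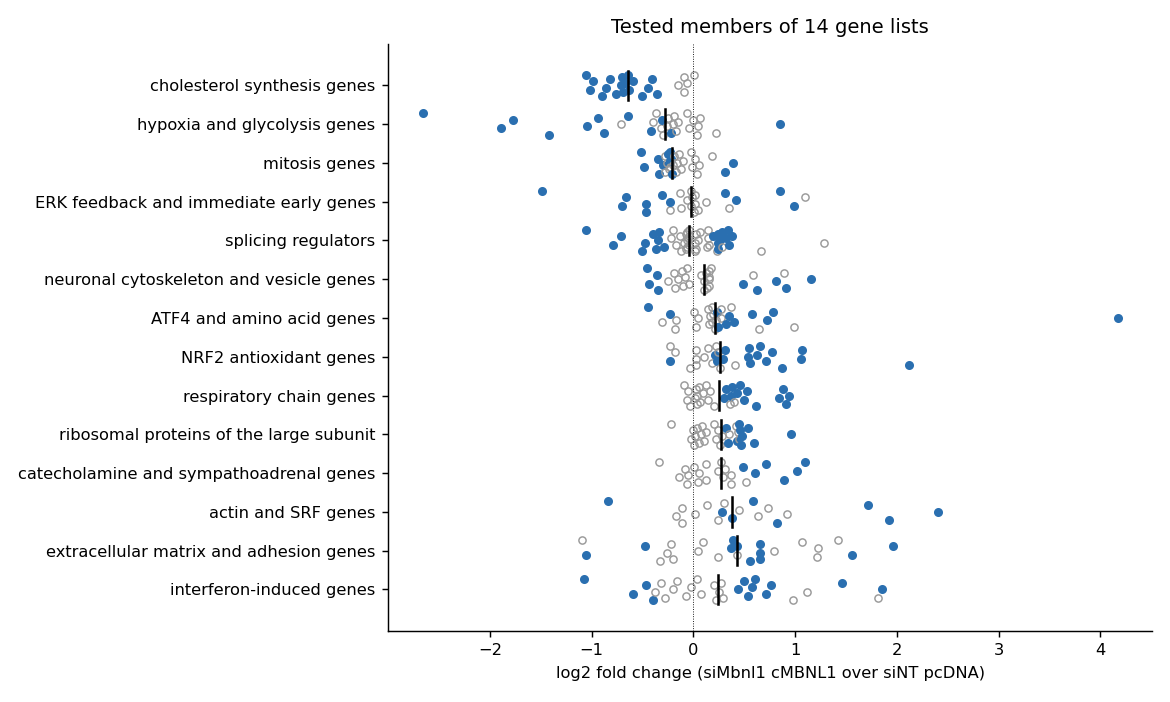
Log2 fold change of siMbnl1 cMBNL1 over siNT pcDNA (x axis) for the tested members of 14 gene lists; filled points are called genes, open points are not called, and bars are list medians. The cholesterol synthesis list lies to the left with a median of -0.64, and the splicing regulators lie on both sides of 0.

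Splicing was read from junction counts, with 44658400 to 48609800 inclusion reads over the skipped-exon events per siMbnl1 cMBNL1 replicate and 41786300 to 42454500 per replicate of the other set. The deposited tables do not name their sets. Set 1 was taken as siMbnl1 cMBNL1 from the labels; set 2 held the same reads as set 2 of the tables for siFmr1 pcDNA and siMbnl1 pcDNA in 100% of the matched exons and was taken as siNT pcDNA. Replicates of the sets carry no number and are named by position.

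Of 59093 skipped-exon events with at least 20 junction reads per replicate on average in both sets, 489 were called (0.828%) at a difference of at least 10 percentage points and a quasi-binomial adjusted p under 0.05. An exon is counted once for each pair of flanking exons. The events held 43399 distinct exons, 479 of them called. Counts of tested and called exons below are of events, and motif shares are over distinct exons. The called events lay in 410 genes. Inclusion was lower in siMbnl1 cMBNL1 for 374 of them (0.633%) and higher for 115, so 76.5% of calls were losses. In the authors' deposited table, 1096 of these exons passed at the same difference by the deposited false discovery rate, and all 489 were among them. The count moved with the replicates used and with the prior of the dispersion estimated from them. Without any 1 siMbnl1 cMBNL1 replicate it was 12 to 17, with more gains than losses (8 and 4, 10 and 7, 11 and 6). Without any 1 siNT pcDNA replicate it was 684 to 758. With the prior of the dispersion kept from all 6 replicates, an alternative chosen after seeing the data, it was 385 to 497 and 323 to 453, with more losses than gains in each of these 6 fits.

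Of the 374 exons with lower inclusion, 175 were at 95% or more in siNT pcDNA and 89 at 100% in all 3 replicates. Over all tested exons, 87.9% were at 95% or more. Among the 374, the median went from 93.7% to 75.3%. The median in siMbnl1 pcDNA was 78.8% over the 322 of them listed there, for which it was 91.2% in siNT pcDNA and 72.9% in siMbnl1 cMBNL1. Of 320 that could be tested between the siMbnl1 groups, 56 were lower still in siMbnl1 cMBNL1 and 4 were higher. Both comparisons use the same siMbnl1 cMBNL1 replicates, in which these exons were picked as low. That choice favours lower values by itself, so the split is not separate evidence. Exons with higher inclusion came from the middle of the range: the median went from 43.6% to 66.9%. Over the 111 of them listed for siMbnl1 pcDNA, the median was 62.8% there, 44.0% in siNT pcDNA and 68.4% in siMbnl1 cMBNL1. Of 109 tested between the siMbnl1 groups, 10 differed upwards and 1 downwards, with the same limit. Over all 37709 skipped exons tested between the siMbnl1 groups, 177 were called (0.469%).

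Exons that rose and exons that fell differed in make-up. The rising exons had a median length of 51 bases, and 73.9% kept the reading frame; the falling exons had a median of 131 bases, and 42.0% kept it. All tested exons had a median of 119 bases and 38.0% kept the frame. Of 431 tested events with exons of 27 bases or less, called microexons, 29 were called (6.73%), against 0.759% of those of 28 to 300 bases. The length classes differed in how many exons were variable. A level between 5% and 95% in a group was found for 10062 of all 59093 tested events, 213 of them microexons. The shares of calls are not adjusted for this. Of the 29 events, 27 rose and 2 fell, those of Mapk8ip3 and Mroh1. The rising microexons lay in 25 genes and differed by 11.01 to 39.9 points with a median of 16.5. None of the 29 overlapped between the groups, which was so for 484 of all 489 called skipped exons and is not particular to microexons. The number of rising microexons, like that of all exons, dropped to between 2 and 4 without 1 siMbnl1 cMBNL1 replicate. With the dispersion prior kept, the alternative chosen after seeing the data, it was 23 to 26. It was 19 to 25 without 1 siNT pcDNA replicate in that setting.

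**Figure D4:**
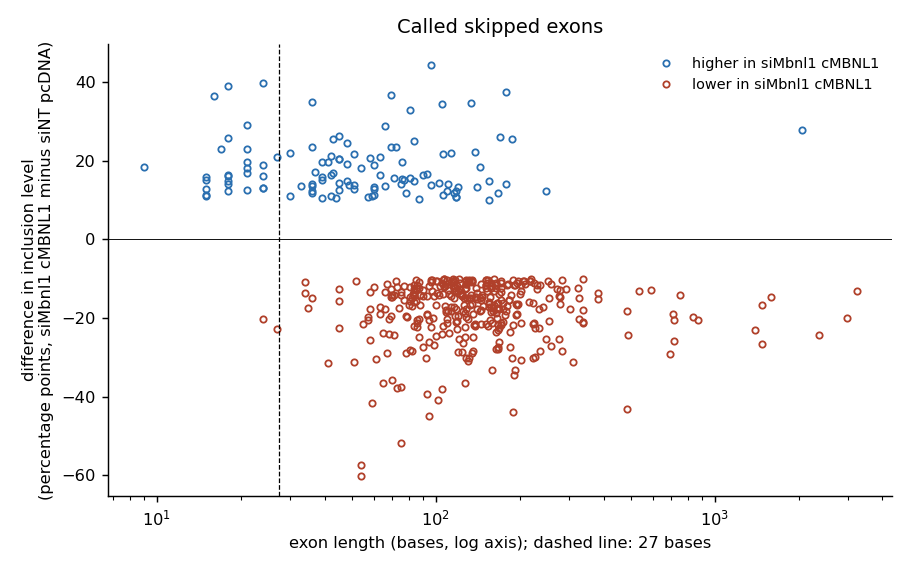
Difference in inclusion level, siMbnl1 cMBNL1 minus siNT pcDNA in percentage points (y axis), against exon length in bases (x axis, log scale) for the 489 called skipped exons; blue circles are higher and red circles lower in siMbnl1 cMBNL1. To the left of the dashed line at 27 bases, 27 of 29 circles are above 0.

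Microexons are a class of very short exons, many of them used in neurons, that often add a few residues to a protein and keep its frame. Src, which encodes a tyrosine kinase with a known neuronal microexon, had its 18-base exon (chr2:157458843-157458860) at 24.2%, 41.9% and 27.2% in siMbnl1 cMBNL1 and at 7.50%, 4.92% and 3.79% in siNT pcDNA (difference 25.7 points, quasi-binomial adjusted p = 0.006). In siMbnl1 pcDNA it was at 9.40%, 0% and 27.1%, a wide spread, and the siNT pcDNA levels rest on 1, 4 and 3 inclusion reads. Dctn1, the large dynactin subunit that binds microtubules, had its 21-base exon (chr6:83183936-83183956) at 21.4%, 21.6% and 21.4% against 3.28%, 5.02% and 5.57% (16.8 points, adjusted p = 2e-05). Eif4g1, the scaffold of translation initiation, had a 21-base exon (chr16:20674786-20674806) at 39.4%, 32.6% and 39.7% against 13.5%, 20.4% and 18.6% (19.7 points, adjusted p = 1.7e-05).

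Mast2, a microtubule-associated kinase, had a 21-base exon (chr4:116333413-116333433, minus strand) at 47.8%, 33.0% and 48.1% in siMbnl1 cMBNL1 against 11.4%, 15.2% and 15.04% in siNT pcDNA (29.1 points, quasi-binomial adjusted p = 0.00025). In siMbnl1 pcDNA the exons of Dctn1, Eif4g1 and Mast2 were also higher than in siNT pcDNA: 29.7%, 13.98% and 25.5% for Dctn1, 38.6%, 37.7% and 45.1% for Eif4g1, and 48.1%, 49.4% and 51.7% for Mast2. None of these 4 exons differed between the siMbnl1 groups by the test. The largest microexon rise was the 24-base exon of Bin1, a membrane-bending protein with known muscleblind-dependent exons, at 56.9%, 43.7% and 68.7% against 21.7%, 12.9% and 15.01% (39.9 points, adjusted p = 0.0064). An 18-base exon of the ribosomal protein gene Rps24 (chr14:24494052-24494069) had the smallest p of the class, at 63.0%, 58.6% and 63.6% against 18.8%, 24.7% and 24.8% (39.0 points, adjusted p = 1.4e-09). Both exons were also above siNT pcDNA, without overlap, in siMbnl1 pcDNA. Levels there were 43.5%, 51.8% and 52.97% for Bin1 and 66.6%, 62.7% and 67.4% for Rps24. Neither exon was called between the siMbnl1 groups (6.97 and -3.82 points, quasi-binomial adjusted p = 0.81 and 0.24).

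Of the called microexons, 4 were also called between the siMbnl1 groups. Picalm, a clathrin assembly protein, had its 24-base exon (chr7:90194273-90194296) at 17.5%, 25.2% and 26.3% in siNT pcDNA, at 12.2%, 14.5% and 15.1% in siMbnl1 pcDNA, and at 34.8%, 33.9% and 39.0% in siMbnl1 cMBNL1. The 2 siMbnl1 groups thus lay on opposite sides of siNT pcDNA, without overlap (22.0 points between them, quasi-binomial adjusted p = 3.2e-44; 12.9 points from siNT pcDNA, adjusted p = 0.0013). Pdlim7, a scaffold of the actin cytoskeleton, had its 17-base exon (chr13:55507864-55507880) at 46.0%, 49.2% and 62.8% in siMbnl1 cMBNL1, 25.4%, 29.7% and 33.6% in siNT pcDNA, and 24.5%, 41.8% and 25.4% in siMbnl1 pcDNA (22.1 points between the siMbnl1 groups, adjusted p = 1.1e-05).

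Mapk8ip3, a motor adaptor of axonal transport, moved down with the plasmid: its 24-base exon (chr17:24920472-24920495, minus strand) was at 72.4%, 57.0% and 70.0% in siMbnl1 cMBNL1, 90.2%, 84.3% and 85.8% in siNT pcDNA, and 81.5%, 87.4% and 80.2% in siMbnl1 pcDNA (-16.6 points between the siMbnl1 groups, quasi-binomial adjusted p = 0.00014). Tmem184b, a transmembrane protein gene, rose by 12.5 points from siNT pcDNA but stood 13.1 points below siMbnl1 pcDNA, at 21.4%, 23.8% and 21.8% against 37.0%, 38.7% and 30.5%. Max, the partner of MYC, rose from 27.99%, 37.0% and 30.9% in siNT pcDNA to 56.0%, 52.2% and 50.7%; its 8.98 points over siMbnl1 pcDNA had a quasi-binomial adjusted p of 0.0051 but missed the minimum of 10 points. The direction against siMbnl1 pcDNA thus differed from exon to exon among these 4.

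The microexons described are printed to show their lengths and letters, all from coding exons of the GENCODE M21 transcripts (GRCm38), with the same motifs in capitals.

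Src 18-base exon: gaggaaggtggatgtcag

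Dctn1 21-base exon: cggggactgaagcctaagaag

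Eif4g1 21-base exon: ggaggattcaggtctctgcag

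Mast2 21-base exon: ccatggccacagaacagacag

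Picalm 24-base exon: aatggcatgcattttccacaatac

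Pdlim7 17-base exon: gtgcagacctctgacaa

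Mapk8ip3 24-base exon: tcctCGCCagtcgtggaggaaaag

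Tmem184b 21-base exon: TGCTgacgtacggcccatacg

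Of these 8 exons, picked after their values were seen, those of Mapk8ip3 and Tmem184b held one of the 4 motifs. Over the whole class, 8% of 25 rising and 50% of 2 falling microexons with an annotated sequence held a motif, against 16.7% of the 342 tested microexons. These numbers are small and the shares were not tested. The count covers the exon only; flanking introns were not analysed here.

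The motifs were also counted in longer exons. Among exons of 28 to 300 bases, the motifs occurred at a median of 2.04 per 100 bases in exons that fell, 0.90 in exons that rose and 1.33 in all tested exons, and 86.9%, 55.3% and 76.6% of them held at least 1. The base composition differed as well, with a median GC content of 56.1% in the falling, 47.8% in the rising and 50.5% in all tested exons of that length. Median lengths were 127, 63 and 117 bases in the same order, and a longer exon has more room for at least 1 motif. Because the motifs hold a GC step, motif content and GC content also move together here. The part of length, GC content and motifs was not tested.

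Map2 and Mapt encode microtubule-associated proteins of neurons that share repeats for binding microtubules, and each has a 93-base alternative exon that adds 1 repeat. The Map2 exon (chr1:66431527-66431619) was included at 62.5%, 69.4% and 62.3% in siNT pcDNA, 19.98%, 38.1% and 18.8% in siMbnl1 pcDNA, and 21.6%, 28.4% and 26.4% in siMbnl1 cMBNL1. Both siMbnl1 groups were below siNT pcDNA (difference -39.2 points for siMbnl1 cMBNL1, quasi-binomial adjusted p = 0.00092), and the 2 siMbnl1 groups overlapped. The Mapt exon was at 52.3%, 67.2% and 60.2% in siNT pcDNA, 18.9%, 28.5% and 30.2% in siMbnl1 pcDNA, and 45.2%, 37.8% and 39.8% in siMbnl1 cMBNL1. With the cMBNL1 plasmid it stood between the other groups, 18.9 points below siNT pcDNA (adjusted p = 0.0027) and 15.1 points above siMbnl1 pcDNA (adjusted p = 0.00037). The Map2 exon is printed because it had the larger difference.

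Map2 93-base exon: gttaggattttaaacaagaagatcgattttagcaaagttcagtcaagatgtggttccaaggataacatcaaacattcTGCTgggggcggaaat

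The Map2 exon held 1 motif. The Map2 and Mapt exons of 93 bases stayed called in all 6 leave-one-out fits with the dispersion prior kept, and in none of the 3 fits without a siMbnl1 cMBNL1 replicate when the prior was estimated again.

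Other Mapt exons changed as well. The 87-base exon (chr11:104287123-104287209), which encodes part of the amino-terminal region, fell from 42.1%, 37.8% and 49.0% to 23.9%, 17.7% and 26.3% (quasi-binomial adjusted p = 0.0054) when joined to the 66-base exon at chr11:104294859-104294924. It fell from 69.5%, 81.4% and 75.3% to 62.8%, 39.6% and 49.6% when joined to the exon after that, and there the call was lost without the second siNT pcDNA replicate. The 66-base exon rose from 42.1%, 53.6% and 39.4% to 72.8%, 80.4% and 68.8% (adjusted p = 0.017), a call lost without the second siMbnl1 cMBNL1 or the first or the third siNT pcDNA replicate with the dispersion prior kept. As gene, Mapt was not called (log2 fold change 0.08).

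The largest differences after Mbnl1 included Dnajc5 (chr2:181548926-181549000, 75 bases, not coding in GENCODE M21), the gene of a vesicle chaperone, where an exon present in 100% of junction reads in all 3 siNT pcDNA replicates was at 51.1%, 33.2% and 60.6% in siMbnl1 cMBNL1 (quasi-binomial adjusted p = 0.00014). Inclusion reads were 69, 53 and 95 there, and skipping reads went from 0 in each siNT pcDNA replicate to 44, 71 and 41. Crem, a cAMP-responsive transcription factor gene, had an exon of 189 bases at 30.6%, 33.33% and 46.7% against 86.7%, 70.0% and 85.3% (adjusted p = 0.0093), on 3 to 58 reads per form and replicate. Calls for exons of Crtc1, Aak1, Rrnad1, Rfx3 and Hexdc, with differences of 40.8 to 45.03 points in size, were each lost on leaving out some single replicates even with the dispersion prior kept.

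**Figure D5:**
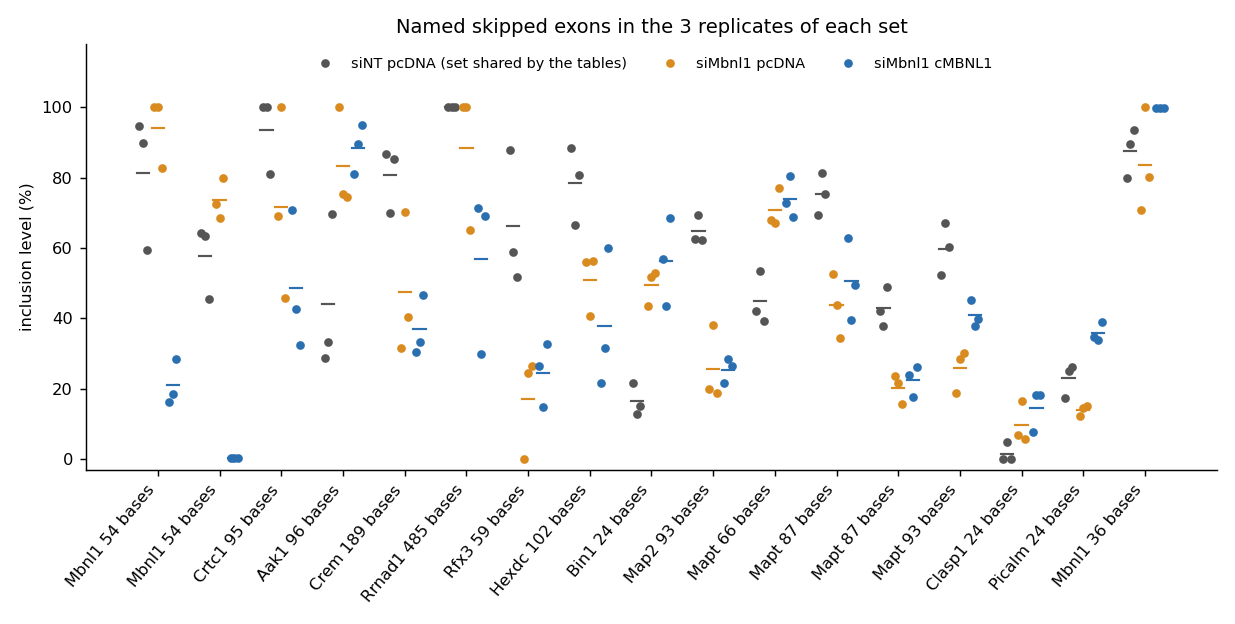
Inclusion level in percent (y axis) of 17 named skipped exons in each of the 3 replicates of siNT pcDNA, siMbnl1 pcDNA and siMbnl1 cMBNL1; points are replicates and bars their means. The 2 columns for the Mbnl1 54-base exon, and likewise for the Mapt 87-base exon, differ in the flanking exon; in the first, siMbnl1 cMBNL1 is at 16.4% to 28.6%, and in the second under 1%.

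The other event types were tested in the same way. Mutually exclusive exons, where either of 2 neighbouring exons is used, were called for 904 of 14279 pairs (6.33%). The level of the exon nearer the 5′ end was higher in siMbnl1 cMBNL1 in 622 and lower in 282 (1.97%). Without any 1 siMbnl1 cMBNL1 replicate 117 to 183 pairs were called, and without any 1 siNT pcDNA replicate 459 to 1316. With the dispersion prior kept, these counts were 261 to 363 and 514 to 1070. The median level over all pairs, called or not, was 48.1%, 48.8% and 48.8% in the siMbnl1 cMBNL1 replicates and 46.0%, 48.0% and 46.9% in siNT pcDNA. Pgd, an enzyme of the pentose phosphate pathway, had the largest difference, from 92.3%, 81.7% and 84.5% to 43.9%, 41.3% and 40.8% for the exon nearer the 5′ end, chr4:149161629-149161694 on the minus strand, set against chr4:149160835-149160953 (quasi-binomial adjusted p = 0.00062). Pgd as a gene rose by 0.29 on the log2 scale.

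Alternative 3′ splice sites were called in 18 of 1186 events (1.52%), 16 of them lower (1.35%), alternative 5′ splice sites in 17 of 877 (1.94%), 10 of them lower (1.14%; without siMbnl1 cMBNL1 replicate 1 or 3, 2 of 5 and 5 of 12 were lower), and retained introns in 13 of 252 (5.16%), 9 of them lower (3.57%). For splice sites the level is that of the longer form. Pdlim5, a scaffold of the actin cytoskeleton, used the longer exon form (chr3:142312123-142312541, minus strand) at 53.3%, 46.8% and 43.6% against 78.5%, 68.9% and 76.3% (quasi-binomial adjusted p = 2.1e-05). Tacc2, a centrosomal protein gene, used the longer form of chr7:130734949-130735228 at 29.4%, 35.5% and 39.6% against 6.80%, 14.5% and 15.3% (adjusted p = 0.0019). In both the replicates of the 2 groups did not overlap.

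Introns were retained less often in 3 genes with large differences. Luc7l, which encodes a component of the U1 snRNP, kept an intron of 986 bases in 19.4%, 15.6% and 15.6% of transcripts against 44.2%, 41.9% and 47.8% (chr17:26253974-26255125, quasi-binomial adjusted p = 8.9e-05). Faap20, a Fanconi anaemia pathway gene, was at 31.5%, 34.5% and 34.4% against 56.7%, 73.8% and 60.9% (adjusted p = 0.0016), and Vamp1, a vesicle SNARE, at 50%, 49.2% and 58.5% against 100%, 100% and 96.5% (adjusted p = 0.0078). All 3 stayed called when any 1 replicate was left out with the dispersion prior kept.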

How the data were processed

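RNA from N2a cells was sequenced from directional libraries, per the labels' protocols. The gene table holds normalised counts deposited by the authors, a signal whose scaling method its header does not state. The splicing tables hold deposited rMATS junction counts per replicate with form lengths, p-values and false discovery rates, per the file headers. Per the submitters' processing notes, tools named for the series include Trimmomatic 0.39, STAR 2.6.1, RSEM 1.3.1 and DESeq2 1.16.1, and the build is GRCm38; their roles, and the version of rMATS, were not found in the labels.

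From these, log2(value + 1) was tested with limma 3.58.1 (intensity trend, R 4.3.3) in 1 fit of all 15 libraries, on 16219 genes with a mean of at least 1, after leaving out 27 rows with date-converted symbols. Junction reads were re-tested per event with a quasi-binomial F test whose dispersion was moderated across events and not under 1, for events with at least 20 reads per replicate on average in both sets. Calls required a Benjamini-Hochberg adjusted p under 0.05 over all genes, or over all events of a type, and for events a difference of at least 10 points. On simulated data the gene test recovered 54% of changes of 0.5 and 93% of changes of 1 (log2), planted in 200 of 16219 genes. These were genes above a minimum level, and all groups were drawn with the same SD per gene, without the wider spread of siNT pcDNA. The exon test recovered 29.5% of differences of 0.2, planted in 200 of 59093 events. These had intermediate inclusion and a fixed spread between replicates. Recovery for other genes and exons was not simulated.

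The members, gene lists and named items were chosen with earlier results of these data known. Named genes were Mbnl1, Mbnl2, Mbnl3 and Fmr1; the 10 largest rises and falls without overlap, with a mean of at least 20 in both groups and no Gm or Rik symbol; up to 5 each way from under 5 to at least 50; and up to 4 per list. Named events were the 10 skipped exons and 3 other events per type of largest difference, and all called events of known muscleblind host genes. Fxr2, list members not called, gene levels in the siFmr1 groups, and microexons outside this rule were picked after their values were seen. Exon sequences came from GENCODE M21 transcripts, which matched 99.7% of 43399 distinct tested exons. Alternatives covered pseudocount, filters, scaling, array weights, the libraries fitted, the block, thresholds and leaving out each replicate. Some genes and sequences are not reported here.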

Additional observations from a re-analysis of the deposited data

How the results depend on the processing

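No named gene or event changed sign under any alternative run. Without 1 siMbnl1 cMBNL1 replicate and with the dispersion prior estimated again, the balance of skipped exons turned from losses to gains (8 to 11 higher, 4 to 7 lower). The balance of alternative 5′ sites turned in the same way without replicate 1 or 3. The 5467 changed genes became 3019 with only the 6 libraries fitted, 3564 with array weights and 889 at a log2 change of at least 1; pseudocounts, filters and TMM or quantile scaling gave 5269 to 5482. Leaving out 1 library gave 4247 to 6452. Over all genes, deviations of same-numbered libraries correlated at 0.063, 0.055 and -0.0046 with siNT pcDNA and at -0.0049, 0.076 and 0.036 with siMbnl1 pcDNA, under the 0.1 taken as pairing, although Bnip3 and Aldoc were lowest in replicate 2 of each of these groups. A replicate block gave 5479 genes, and 289 between the siMbnl1 groups. Against siMbnl1 pcDNA, the 364 genes became 2849 with 6 libraries, 2340 with array weights and 37 to 182 leaving out 1 library. At a difference of at least 0.05, the skipped exons were 947, the alternative 3′ sites 29 and the skipped exons between the siMbnl1 groups 344; at 0.2 they were 154, 4 and 49, with 190 mutually exclusive pairs, 3 alternative 5′ sites and 6 retained introns. By the false discovery rate of the authors' deposited table, the counts were 1096 skipped exons, 2670 mutually exclusive pairs, 58 and 62 alternative 3′ and 5′ sites and 31 retained introns. Leaving out 1 replicate gave 12 to 758 skipped exons, 117 to 1316 mutually exclusive pairs, 5 to 23 and 4 to 24 alternative 3′ and 5′ sites, 5 to 17 retained introns and 76 to 177 skipped exons between the siMbnl1 groups. With the dispersion prior kept, an alternative chosen after seeing the data, leaving out 1 replicate gave 323 to 497 skipped exons and 261 to 1070 mutually exclusive pairs. The cause was not tested beyond the prior. No paired analysis was possible because replicates in the splicing tables carry no number. Of 99 named genes 83 kept direction and call throughout, as did 6 of 36 named events. Read depth limits levels of the rarer exons, and the depth behind the gene table is unknown.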

Other observations

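Interferon-induced genes rose in 9 of 30 cases and fell in 4; without siMbnl1 cMBNL1 replicate 1 or 2, 6 rose. Gbp3, a guanylate-binding protein of antimicrobial defence, was listed at 82.0, 78.8 and 74.5 normalised counts in siNT pcDNA and at 226, 194 and 236 in siMbnl1 cMBNL1 (log2 fold change 1.46, limma adjusted p = 2.5e-05). The mean log2 level of the list was 7.10, 6.93 and 7.05 in siMbnl1 cMBNL1, 6.75, 6.69 and 6.77 in siMbnl1 pcDNA, and 6.80, 6.66 and 6.74 in siNT pcDNA. The siMbnl1 cMBNL1 libraries lay above both other groups. Ddx58, the RIG-I sensor of viral RNA, fell by 0.59 against siNT pcDNA but was higher than in siMbnl1 pcDNA by 0.51 (adjusted p = 0.035). Of 19 p53 target genes 6 rose and 4 fell. Ccng1, a cyclin of the p53 response, fell from 3345, 3167 and 2680 to 1506, 1617 and 1527, while Aen, a p53-induced nuclease, rose from 2267, 2624 and 2307 to 3507, 3833 and 3592, each without overlap.

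Extracellular matrix and adhesion genes rose in 9 of 25 cases and fell in 2, with 6 rising without siNT pcDNA replicate 1 or siMbnl1 cMBNL1 replicate 2 or 3. Tnc, the matrix protein tenascin-C, went from 110, 291 and 203 normalised counts to 565, 442 and 677 (log2 fold change 1.56, limma adjusted p = 0.00049), and Lama5, a laminin chain, fell by 1.06. Genes of actin and the serum response factor rose in 7 of 19 cases and fell in 1. Mitosis genes fell in 10 of 30 cases and rose in 2; 15 fell without siNT pcDNA replicate 3, and 4 and 5 without siMbnl1 cMBNL1 replicates 1 and 3. ATF4 and amino acid genes rose in 9 of 30 cases and fell in 2, with 14 rising and 4 falling without siNT pcDNA replicate 2. DNA replication genes rose in 4 of 30 cases and fell in 3; without siNT pcDNA replicate 2, 8 rose and 5 fell, and without siMbnl1 cMBNL1 replicate 2, 2 rose. ER chaperone genes rose in 2 of 20 cases and fell in 3, with 4 rising without siNT pcDNA replicate 2 and 1 without siMbnl1 cMBNL1 replicate 2.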
